A study of Mus musculus with 6 samples.

Results

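Mural cells, the pericytes of capillaries and the smooth muscle cells of larger vessels, were followed in bulk optic nerve RNA through 10 genes: Pdgfrb, Rgs5, Kcnj8, Abcc9, Vtn, Notch3, Ndufa4l2, Acta2, Tagln and Myh11. The genes were taken by symbol from 35850 genes in the table, after the abundances of all listed transcripts of a gene were summed. Of the 10, 8 could be tested. Optic nerves came from mice aged 6 weeks that were exposed to an obesogenic diet (3 libraries) or a control diet (3 libraries), an exposure that the title of the series calls maternal. Obesogenic chow was AIN-76A with sucrose and with fat supplying 58% of energy, while control mice had PicoLab 5053. Mice of both diets had the same genotype, GFAP-Cre with 1 floxed Nf1 allele and 1 Nf1 allele carrying R681X, a model that the submitters describe as forming optic pathway glioma, and no library without the mutation was analysed here. The GFAP promoter drives Cre in glia, and nothing in the labels reports the state of Nf1 in vessel cells. The labels do not say whether libraries came from separate animals or litters, so each p-value reflects only the variation among these libraries, part of which may be technical.

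Pericytes wrap the capillary endothelium, share its basement membrane and help to set up the barrier of capillaries in brain and optic nerve. Endothelial cells release PDGF-B, which recruits pericytes through the receptor encoded by Pdgfrb, and Notch3 signalling keeps mural cells differentiated. Smooth muscle cells of arterioles carry the contractile proteins encoded by Acta2, Tagln and Myh11, which most capillary pericytes hold at low levels, so the 2 groups of genes mark different stretches of the vessel tree.

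Values are TPM, a unit that divides reads by transcript length and so allows levels of different genes to be compared. Each library's listed TPM added up to a total between 788456 and 832193. How deeply a library was sequenced is unknown, because TPM does not carry it. As a check of the tissue, the oligodendrocyte marker Mbp, which encodes myelin basic protein, was at 15014 to 31354 TPM in obesogenic libraries and at 38441 to 41162 TPM in control libraries. Obesogenic library 2 stood apart, since immunoglobulin transcripts held 20.6% of its listed TPM, against at most 0.0439% in any other library, and this share lowers its other values. Over all 14364 genes tested the median log2 change was 0.08, and it lay between -0.03 and 0.17 under other scalings.

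All 8 tested genes had lower values with the obesogenic diet in the fit, as did 42.3% of all genes tested, and none passed an adjusted p of 0.05 (limma, Benjamini-Hochberg over all genes tested). The adjusted p ranged from 0.153 to 0.632. In the same fit 0.00696% of all genes were called lower, that is 1 gene. The log2 change was -1 or lower in 5 of the 8, Vtn, Rgs5, Acta2, Tagln and Myh11, and in 2.81% of all genes. For 5 of the 8, Vtn, Rgs5, Kcnj8, Abcc9 and Tagln, every obesogenic library lay below every control library, which was true of 7.45% of all genes tested. After rescaling without immunoglobulin genes, this held for 2 of the 8, Vtn and Rgs5, and for 5.79% of all genes. Without control library 3 it held for 8 of 8, and for 12.3% of all genes. This count and all its alternatives were chosen after seeing the data. The median log2 change of the 8 was -1.14. In bulk tissue, fewer mural cells, less RNA per mural cell and a different share of other tissue in a library cannot be told apart. All 8 were at 1 TPM or more in every library, so none entered the test through 1 diet alone.

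**Figure D1:**
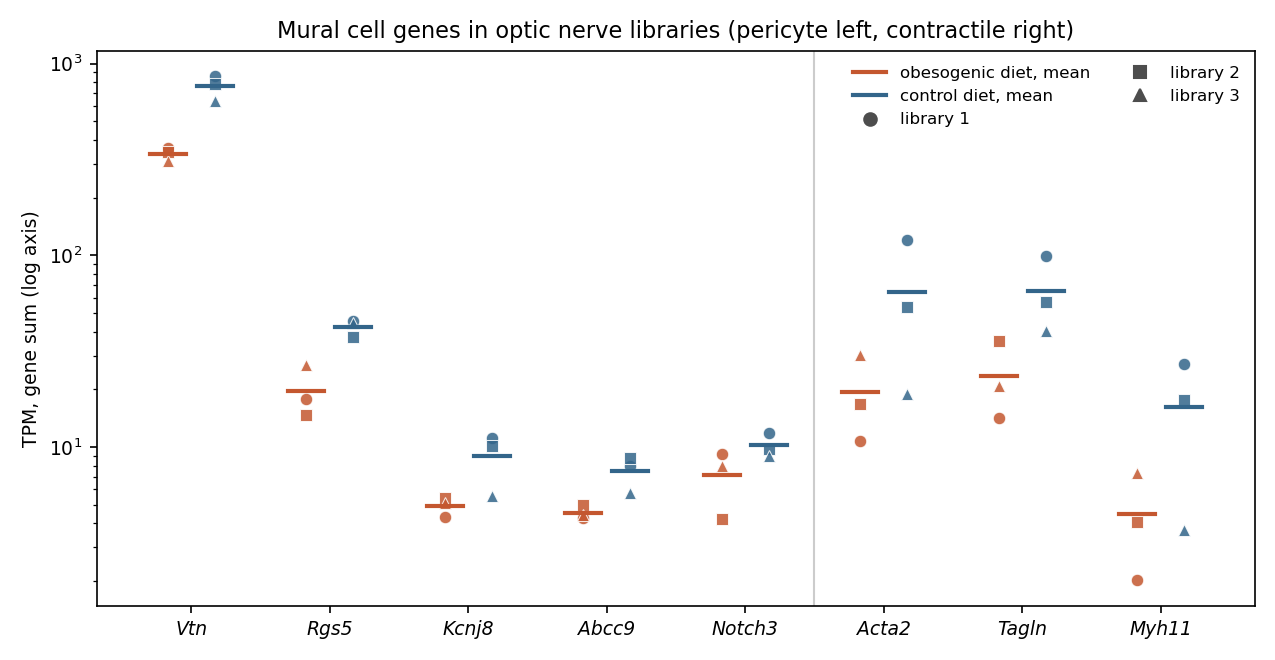
Gene-level abundance (TPM, log axis) of the 8 tested mural cell genes, with 3 obesogenic libraries left and 3 control libraries right for each gene; bars are means and symbols number the libraries. As deposited, the diets are apart for Vtn, Rgs5, Kcnj8, Abcc9 and Tagln, while Notch3, Acta2 and Myh11 overlap. After rescaling without immunoglobulin genes only Vtn and Rgs5 stay apart. The 3 contractile genes spread most within each diet.

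Vtn (ENSMUSG00000017344) encodes vitronectin, an adhesive glycoprotein that pericytes of the brain deposit in the vessel wall. It measured 362, 344 and 309 TPM in obesogenic libraries 1, 2 and 3, against 863, 787 and 639 TPM in control libraries 1, 2 and 3. The highest obesogenic library was thus well below the lowest control library. The means were 338 ± 27.2 TPM in obesogenic and 763 ± 114 TPM in control libraries (SD, n = 3 each), so the obesogenic mean was 44.4% of the control mean. The log2 change was -1.16 (SE 0.20, limma adjusted p = 0.153). It passed without obesogenic library 2 (-1.18, adjusted p = 0.0263), in a fit that called 914 genes.

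Rgs5 (ENSMUSG00000026678) encodes a regulator that switches off G protein signalling and is among the most used pericyte markers. Its values were 17.7, 14.6 and 26.7 TPM in obesogenic libraries 1, 2 and 3, against 45.6, 37.5 and 44.1 TPM in control libraries 1, 2 and 3. The control libraries were close together and all above the obesogenic ones. The log2 change was -1.11 (SE 0.26, limma adjusted p = 0.248), and the obesogenic mean was 46.4% of the control mean. Without obesogenic library 2 it still missed the threshold (-0.93, adjusted p = 0.0639).

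Kcnj8 (ENSMUSG00000030247) and Abcc9 (ENSMUSG00000030249) encode the pore, Kir6.1, and the sulphonylurea receptor, SUR2, of the ATP-sensitive potassium channel of mural cells, which opens when cell energy is low and relaxes the vessel. Kcnj8 measured 4.33, 5.41 and 5.10 TPM in obesogenic libraries 1, 2 and 3, against 11.1, 10.2 and 5.53 TPM in control libraries. Abcc9 measured 4.24, 4.97 and 4.42 TPM in the obesogenic libraries, against 7.91, 8.77 and 5.73 TPM in the control libraries. In both genes the deposited obesogenic values were close together and control library 3 lay just above them. After rescaling without immunoglobulin genes the diets overlapped in both. Obesogenic library 2 was then at 6.34 TPM for Kcnj8 and 5.83 TPM for Abcc9, against 5.31 and 5.50 TPM in control library 3. The log2 changes were -0.69 for Kcnj8 (SE 0.33, limma adjusted p = 0.50) and -0.60 for Abcc9 (SE 0.29, limma adjusted p = 0.503). Kcnj11 and Abcc8, which encode the related channel of neurons and endocrine cells, were too low to test and reached at most 2.26 and 7.95 TPM, both in obesogenic library 3. That library also had the highest summed level of the neuronal markers Snap25, Syt1, Rbfox3, Tubb3, Nefl and Stmn2, 820 TPM, against 280 and 168 TPM in obesogenic libraries 1 and 2 and between 64.4 and 126 TPM in control libraries; the part of neuronal RNA in these values was not tested.

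Notch3 (ENSMUSG00000038146), the Notch receptor of mural cells, measured 9.17, 4.20 and 7.94 TPM in obesogenic libraries 1, 2 and 3, against 11.9, 9.76 and 8.92 TPM in control libraries. Obesogenic library 1 lay within the control range, so the diets overlapped. The log2 change was -0.51 (SE 0.33, limma adjusted p = 0.632), the smallest of the 8, and it was -0.22 without obesogenic library 2, -0.25 with array weights and -0.41 without control library 1.

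Upstream sequences are shown for the 4 pericyte genes whose deposited values did not overlap between the diets, since all 4 had lower obesogenic values and 2 of them, Kcnj8 and Abcc9, lie on the same strand of chromosome 6 with starts 131 kb apart. Each run holds the 250 bases before the gene's start, 5′ to 3′ on the gene's strand, from RefSeq on GRCm38.p6. The positions are chr11:78498870-78499119 (plus strand) for Vtn, chr1:169655251-169655500 (plus strand) for Rgs5, chr6:142571615-142571864 (minus strand) for Kcnj8 and chr6:142702275-142702524 (minus strand) for Abcc9. Capitals mark TGGGAA, the core bound by RBPJ, the DNA-binding partner of Notch receptors; the Rgs5 and Kcnj8 runs hold no match.
Vtn: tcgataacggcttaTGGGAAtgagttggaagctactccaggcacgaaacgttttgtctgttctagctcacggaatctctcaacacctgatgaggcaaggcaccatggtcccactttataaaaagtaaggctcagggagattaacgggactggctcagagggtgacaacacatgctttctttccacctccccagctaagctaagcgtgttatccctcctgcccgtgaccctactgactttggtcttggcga
Rgs5: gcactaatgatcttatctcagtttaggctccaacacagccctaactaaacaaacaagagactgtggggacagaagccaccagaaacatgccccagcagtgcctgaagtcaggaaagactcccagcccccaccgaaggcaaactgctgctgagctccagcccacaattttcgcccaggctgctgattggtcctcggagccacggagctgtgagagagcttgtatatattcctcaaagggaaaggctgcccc
Kcnj8: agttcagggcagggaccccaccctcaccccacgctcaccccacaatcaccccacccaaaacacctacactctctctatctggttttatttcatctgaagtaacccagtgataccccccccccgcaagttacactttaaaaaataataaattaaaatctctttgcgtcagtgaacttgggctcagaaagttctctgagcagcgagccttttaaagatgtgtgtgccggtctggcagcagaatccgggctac
Abcc9: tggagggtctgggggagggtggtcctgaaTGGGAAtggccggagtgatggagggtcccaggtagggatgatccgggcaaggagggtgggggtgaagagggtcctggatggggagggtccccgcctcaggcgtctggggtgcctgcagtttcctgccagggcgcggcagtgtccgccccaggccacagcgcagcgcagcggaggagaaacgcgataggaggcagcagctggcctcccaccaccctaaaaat
The core TGGGAA was found on either strand in 3 of the 6 members with a sequence in the table, at -236 in Vtn, -221 in Abcc9 and -27 in Acta2, counted from the start, and in 21.6% of 32841 promoters of the same length. The forkhead core TGTTTAC was found on neither strand in the 6 and in 3.17% of all promoters. These are matches of letters in a short window, and no binding was measured.

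Pdgfrb (ENSMUSG00000024620) and Ndufa4l2 (ENSMUSG00000040280) could not be tested. For Pdgfrb, which encodes the receptor through which PDGF-B recruits pericytes, the 1 listed transcript, Pdgfrb-202, was at 0 TPM in all 6 libraries. Ndufa4l2 encodes a mitochondrial protein, is induced by low oxygen and is enriched in brain pericytes. Of its 2 listed transcripts 1 had a value, 3.15 TPM in control library 3, and all other values were 0. In GENCODE M21 both genes have another transcript, Pdgfrb-201 and Ndufa4l2-201, which was not analysed here, so these zeros say nothing about the genes as a whole.

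The contractile genes had log2 changes between -1.44 and -1.42, and without control library 1 those of Acta2 and Myh11 were nearer to 0 than those of Vtn (-1.07) and Rgs5 (-1.05). Acta2 (ENSMUSG00000035783) encodes smooth muscle alpha actin, and it measured 10.8, 16.8 and 30.3 TPM in obesogenic libraries 1, 2 and 3, against 120.1, 53.4 and 18.9 TPM in control libraries 1, 2 and 3. Obesogenic library 3 lay above control library 3, so the diets overlapped. The means were 19.3 ± 9.996 TPM in obesogenic and 64.1 ± 51.4 TPM in control libraries (SD, n = 3 each), with a log2 change of -1.44 (SE 0.66, limma adjusted p = 0.484). Reads of actin genes can be shared between near-identical copies; the closest muscle actins, Acta1 and Actg2, reached at most 6.87 and 1.49 TPM. Without control library 1 the change was -0.81, the value nearest to 0, and without control library 3 it was -2.12.

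Tagln (ENSMUSG00000032085), which encodes the actin-binding protein transgelin, measured 14.1, 35.7 and 20.9 TPM in obesogenic libraries 1, 2 and 3, against 99.0, 57.3 and 40.1 TPM in control libraries. The highest obesogenic and the lowest control library were close. After rescaling without immunoglobulin genes they overlapped, with obesogenic library 2 at 41.8 TPM and control library 3 at 38.6 TPM. The log2 change was -1.44 (SE 0.42, limma adjusted p = 0.330). Tagln passed without obesogenic library 2 (-1.77, limma adjusted p = 0.0471), in a fit that called 914 of 14364 genes, 179 of them lower. Myh11 (ENSMUSG00000018830), the smooth muscle myosin heavy chain, measured 2.01, 4.08 and 7.30 TPM in obesogenic libraries 1, 2 and 3, against 27.1, 17.6 and 3.68 TPM in control libraries. Control library 3 lay below obesogenic libraries 2 and 3. The log2 change was -1.42 (SE 0.70, limma adjusted p = 0.513), with -0.89 without control library 1 and -2.19 without control library 3.

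Within the control diet the 3 contractile genes were all highest in library 1 and lowest in library 3, by 6.36 times for Acta2, 2.47 times for Tagln and 7.35 times for Myh11. Among the 5 tested pericyte genes the highest control library exceeded the lowest by 1.22 times for Rgs5 to 2.01 times for Kcnj8. Of 19 other contractile genes tested, 18 were also highest in control library 1 and 16 were lowest in control library 3, against 38.7% and 37.2% of all genes tested. Within the obesogenic diet all 3 were lowest in library 1, which was true of 6 of the 19 other contractile genes and of 13.3% of all genes. The mean log2(TPM + 1) of the contractile minus the pericyte members was -1.15, -0.11 and -0.10 in obesogenic libraries 1, 2 and 3, against 0.98, 0.27 and -0.75 in control libraries 1, 2 and 3, so the balance of contractile to pericyte transcripts overlapped between the diets. Skeletal muscle markers had a summed level of 20.2, 8.16 and 10.9 TPM in obesogenic libraries and 45.3, 15.6 and 20.2 TPM in control libraries over the 5 of 10 that were tested. They too were highest in control library 1, and their part in the contractile values was not tested. Of the skeletal muscle markers below the filter, Myh1 and Myh4 reached at most 0.303 and 0.254 TPM, and Myl1 was at 16.1 TPM in control library 1, at 2.90 TPM in control library 3 and at most 0.359 TPM elsewhere.

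**Figure D2:**
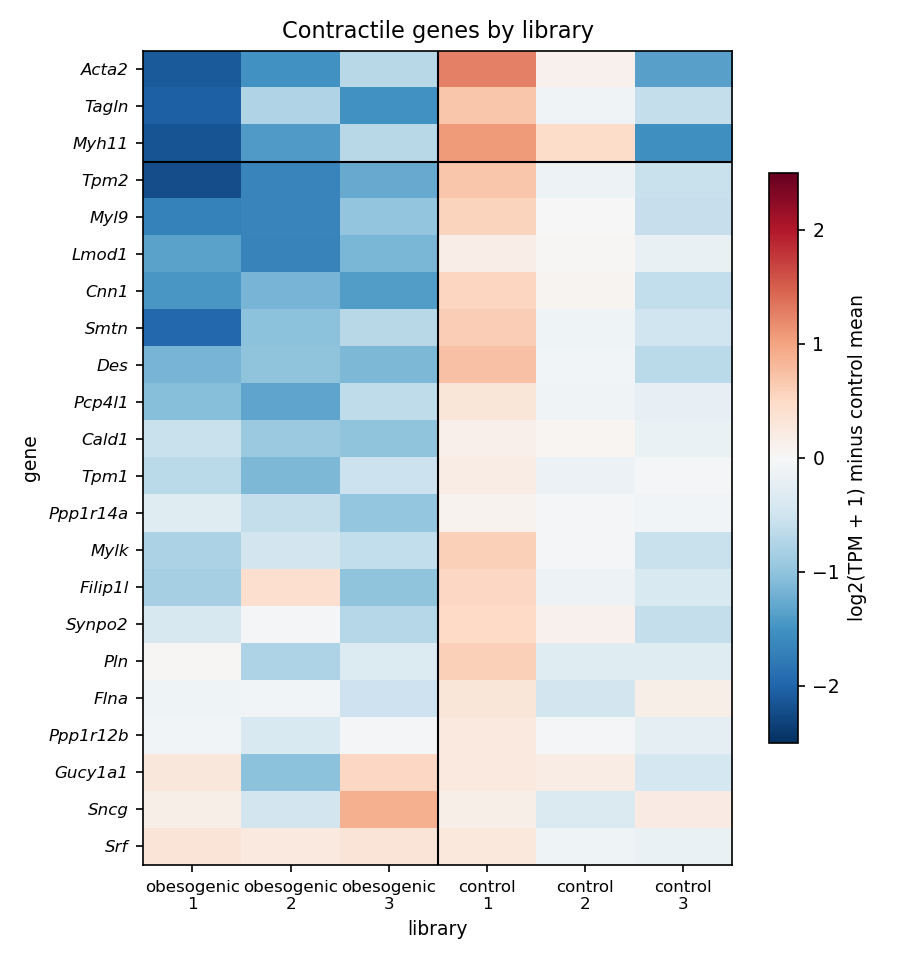
Contractile genes by library, as log2(TPM + 1) minus the gene's control mean, with obesogenic libraries in the left 3 columns and control libraries in the right 3; Acta2, Tagln and Myh11 stand above the line and 19 other contractile genes, ordered by change, below it. Control library 1 is the highest control library in 18 of the 19, and Srf and Sncg are the 2 with a higher obesogenic value in the fit.

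Vtn was the highest of the 8 in all 6 libraries. In obesogenic libraries the order of means below it was Tagln at 23.5 TPM, Rgs5 at 19.7, Acta2 at 19.3, Notch3 at 7.10, Kcnj8 at 4.95, Abcc9 at 4.55 and Myh11 at 4.46 TPM. In control libraries it was Tagln at 65.5 TPM, Acta2 at 64.1, Rgs5 at 42.4, Myh11 at 16.1, Notch3 at 10.2, Kcnj8 at 8.93 and Abcc9 at 7.47 TPM. Tagln, Acta2 and Rgs5 overlapped in both diets, as did the neighbours Notch3 and Kcnj8 and the neighbours Kcnj8 and Abcc9, so the order of these neighbours is not settled by their spread. In control libraries every Notch3 value lay above every Abcc9 value, the closest being 8.92 and 8.77 TPM. Myh11 had rank 5 of the 8 in control libraries 1 and 2 and rank 8 in control library 3.

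Of 27 listed transcripts of the 10 genes, 14 could be tested. All 14 had a lower obesogenic value in the fit, none passed over all transcripts (lowest limma adjusted p = 0.211), and in 8 the diets did not overlap, against 6.11% of 35408 transcripts tested. These 8 were Vtn-201, Vtn-202, Vtn-203, Vtn-204, Rgs5-201, Kcnj8-202, Abcc9-203 and Tagln-202. All belong to genes that did not overlap at gene level, so the 8 are not independent of each other or of that count. In the transcript fit 0.00565% of transcripts were called, that is 2. Vtn was carried by Vtn-201, which codes for protein, at 280, 322 and 260.3 TPM in obesogenic libraries 1, 2 and 3, against 669, 656 and 507 TPM in control libraries. A form with a retained intron, Vtn-204, measured 76.2, 18.8 and 44.2 TPM in obesogenic libraries and 181, 123 and 123 TPM in control libraries. It made up 21.05%, 5.47% and 14.3% of the gene's TPM in obesogenic and 20.96%, 15.6% and 19.2% in control libraries, so only obesogenic libraries 2 and 3 were below the control range. Its log2 change was -1.78 (SE 0.48, limma adjusted p = 0.364), beside -1.08 for Vtn-201 (SE 0.20, limma adjusted p = 0.211), and the difference between the 2 was not tested.

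The other genes were carried by few transcripts. Rgs5-201 held at least 99.4% of Rgs5, Notch3-201 held 100% of Notch3, and Abcc9-203 and Kcnj8-202 held most of the listed TPM of theirs in every library. Abcc9-201 and Abcc9-202, annotated in GENCODE M21, were not analysed here, so the Abcc9 level and its rank cover only part of that gene's transcripts. Tagln-202, another coding form, measured 0, 6.54 and 2.62 TPM in obesogenic libraries 1, 2 and 3, against 23.6, 14.7 and 10.4 TPM in control libraries (log2 change -2.45, SE 0.73, limma adjusted p = 0.417). Tagln-201 measured 11.2, 27.7 and 16.7 TPM in obesogenic libraries, against 70.4, 40.0 and 26.7 TPM in control libraries, so obesogenic library 2 overlapped control library 3. For Myh11, Myh11-204 was the main form in each library, at 1.54, 3.39 and 3.93 TPM in obesogenic and 14.8, 12.7 and 3.14 TPM in control libraries. Acta2-202 was at 4.18 TPM in obesogenic library 1, at 17.2 TPM in control library 1 and listed at 0 elsewhere, so most of the Acta2 spread within diets came from Acta2-201.

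Other pericyte genes had mostly lower values as well. Of 22 listed, 21 were tested, 20 had a lower obesogenic value in the fit, against 42.3% of all genes, and 0 passed over all genes. In 9 of the 21 every obesogenic library lay below every control library, against 7.45% of all genes. Their median log2 change was -0.66. Cd248, a surface glycoprotein of pericytes and fibroblasts, measured 27.1, 21.9 and 19.3 TPM in obesogenic libraries against 72.1, 68.1 and 52.9 TPM in control libraries (log2 change -1.46, SE 0.22, limma adjusted p = 0.140). Foxf2, a forkhead factor needed for brain pericyte differentiation, measured 10.7, 10.3 and 9.98 TPM in obesogenic libraries against 28.2, 26.6 and 22.3 TPM in control libraries. Foxc1, another forkhead factor that the meninges also express, had a log2 change of -1.20 and Slc19a1, the reduced folate carrier, of -0.99. Cspg4, the NG2 proteoglycan shared by pericytes and oligodendrocyte precursors, was at 26.4, 13.3 and 21.2 TPM in obesogenic and 16.8, 23.9 and 25.4 TPM in control libraries, without a clear direction. Cspg4 was picked after its values were seen. The highest value of Atp13a5, the 1 gene higher in the fit, was 3.36 TPM.

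Of 26 other contractile genes, 19 were tested, 17 had a lower obesogenic value in the fit, against 42.3% of all genes, and 0 passed. In 10 of the 19 every obesogenic library lay below every control library, against 7.45% of all genes, and the median log2 change was -0.63. Tpm2, a muscle tropomyosin, measured 8.54, 13.2 and 17.6 TPM in obesogenic libraries against 70.6, 39.6 and 29.5 TPM in control libraries (log2 change -1.71, SE 0.38, limma adjusted p = 0.236). Myl9, the regulatory light chain of smooth muscle myosin, measured 42.9, 44.3 and 70.6 TPM in obesogenic libraries against 208, 143 and 95.1 TPM in control libraries. Lmod1, a smooth muscle leiomodin, had a log2 change of -1.39 and Cald1, which encodes caldesmon, of -0.83. Srf, the transcription factor that drives contractile genes, was at 14.7, 13.8 and 14.6 TPM in obesogenic and 14.1, 10.7 and 10.2 TPM in control libraries, and was picked after its values were seen.

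In the PDGF and Notch pathways, which act on mural cells, median log2 changes were closer to 0, at -0.32 and 0.15. Among ligands and receptors of the PDGF system 5 of 5 were tested, 4 were lower in the fit, 0 passed and in none were the diets apart. Pdgfd measured 28.4 ± 9.82 TPM in obesogenic and 40.7 ± 7.58 TPM in control libraries (SD, n = 3 each), and Pdgfa, Pdgfra and Pdgfc had log2 changes of -0.32, -0.34 and -0.15. Pdgfb, the ligand for the pericyte receptor, was at 5.26, 6.59 and 6.48 TPM in obesogenic and 10.1, 3.28 and 5.22 TPM in control libraries. Of 17 Notch pathway genes beside Notch3, all tested, 8 were lower and 9 higher in the fit and 0 passed. Jag1, the Notch ligand of endothelium and muscle, measured 8.20, 5.34 and 5.81 TPM in obesogenic libraries against 12.7, 10.6 and 9.30 TPM in control libraries (log2 change -0.68, SE 0.28, limma adjusted p = 0.446). The Notch targets Hes1 and Nrarp had log2 changes of -0.50 and 0.87, Notch1 of -0.45, and Heyl, a target of Notch3 picked after its values were seen, was at 8.58, 7.10 and 11.1 TPM in obesogenic libraries against 9.22, 7.78 and 5.02 TPM in control libraries.

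Relatives and partners of single members were mixed. Of 8 vitronectin receptor and binding genes, 6 were tested, 3 lower and 3 higher in the fit, and 0 passed; Itgb3, the integrin subunit of the classical vitronectin receptor, measured 6.43, 2.72 and 2.42 TPM in obesogenic and 4.69, 6.67 and 5.76 TPM in control libraries. Itga5, Itgb5 and Itgav had log2 changes of -0.53, -0.46 and 0.25. Of 8 other small RGS genes of the R4 family, 6 were tested, 4 were higher in the fit and 0 passed. Rgs2, which limits Gq signalling in smooth muscle and is also expressed by neurons, measured 37.8, 40.3 and 81.4 TPM in obesogenic libraries against 25.6, 17.6 and 20.3 TPM in control libraries (log2 change 1.22, SE 0.33, limma adjusted p = 0.294), the opposite direction to Rgs5. Rgs8, a gene of neurons, was at 2.21, 1.56 and 5.47 TPM in obesogenic libraries against 0.582, 0.341 and 0.349 TPM in control libraries, and Rgs3 and Rgs1 had log2 changes of -0.38 and 1.07. Every obesogenic library lay above every control library in Rgs2, as in 8.88% of all genes. Rgs8 reached 1 TPM only in the 3 obesogenic libraries, so its direction and separation were fixed by the filter. The summed neuronal marker level given above was also highest in obesogenic library 3, and its part in these values was not tested. Of 11 genes induced by low oxygen, 10 were tested, 8 were lower in the fit and 0 passed, with a median of -0.41. Adm, the vasodilator adrenomedullin, measured 11.98, 15.0 and 10.4 TPM in obesogenic and 24.5, 24.2 and 23.7 TPM in control libraries (log2 change -0.92, SE 0.22, limma adjusted p = 0.265). Ddit4, Slc2a1 and Egln3 had log2 changes of -0.65, -0.56 and -0.72.

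**Figure D3:**
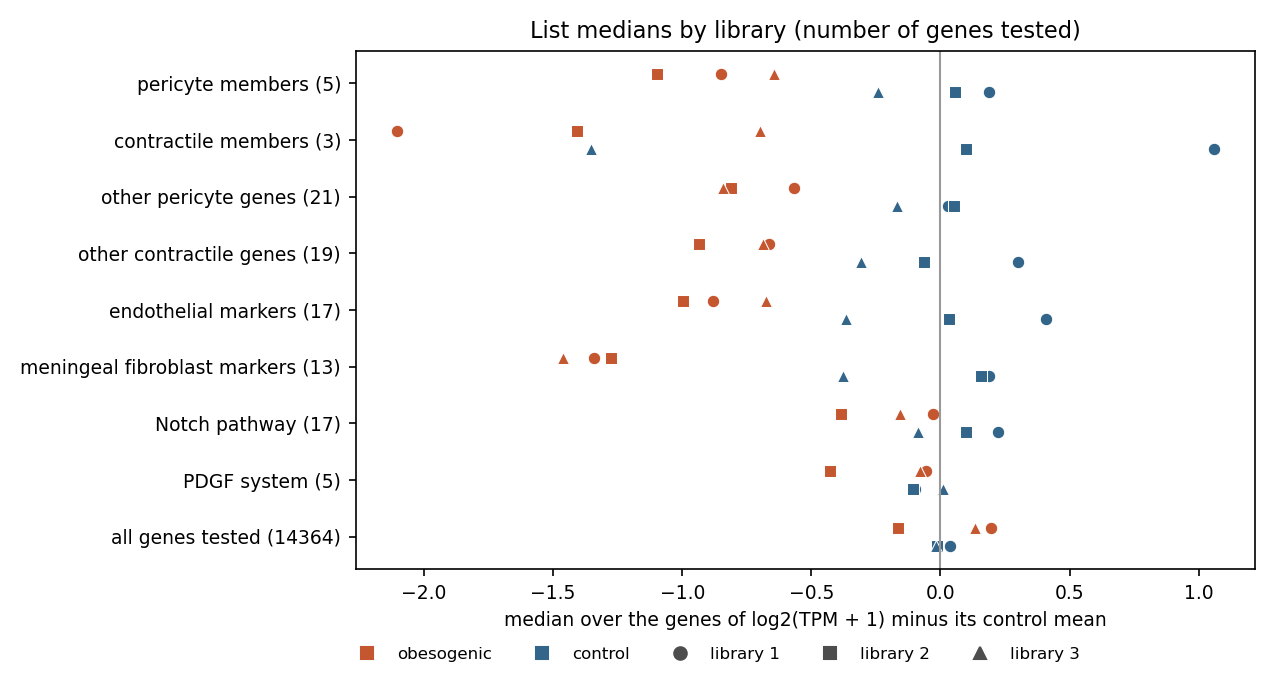
Median over the tested genes of each list of log2(TPM + 1) minus the gene's control mean, by library, with obesogenic points above control points in each row. Pericyte, other contractile, endothelial and meningeal medians lie below those of every control library in each obesogenic library. The contractile members overlap through control library 3 at -1.35, and the Notch pathway medians lie between -0.38 and 0.22.

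Marker values of endothelium and of the nerve's sheath were lower in obesogenic libraries as well. The summed level of 17 tested endothelial markers was 575, 561 and 675 TPM in obesogenic libraries 1, 2 and 3, against 1499, 1239 and 901 TPM in control libraries, and their median log2 change was -0.86, with 16 of 17 lower in the fit and 0 past the threshold. Ramp2, a co-receptor for adrenomedullin, and Slco1a4, an organic anion transporter of barrier endothelium, had log2 changes of -0.97 and -0.86, beside Itm2a at -1.21 and Cdh5 at -1.21. The summed level of 13 meningeal fibroblast markers was 1456, 2228 and 1274 TPM in obesogenic libraries, against 4273, 4178 and 3021 TPM in control libraries, with a median log2 change of -1.35. Of these, Aldh1a2, Igf2, Fmod and Ogn had log2 changes of -1.54, -1.997, -1.65 and -1.35. Every obesogenic library lay below every control library in 10 of 17 endothelial and 10 of 13 meningeal markers. That was true of 5 of the 8 mural genes and of 7.45% of all genes. As in the mural genes, control library 3 was the lowest control library in 14 of 17 endothelial and 13 of 13 meningeal markers. Among other cell types, oligodendrocyte markers were lower in the fit in 6 of 6, with a median log2 change of -0.61 and 0 past the threshold. In 3 of these 6, Mbp among them, every obesogenic library lay below every control library, against 7.45% of all genes. Astrocyte markers were lower in the fit in 5 of 6, with a median of -0.28 and 0 past the threshold. Neuronal markers were higher in the fit in 6 of 6, with a median log2 change of 2.60 and 0 past the threshold. In 5 of these 6 every obesogenic library lay above every control library, against 8.88% of all genes. The part of nerve, sheath and vessel content in the mural values was not tested, apart from the comparison with endothelial genes that follows.

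To ask whether mural genes differed beyond the endothelium they cover, each library's mean log2(TPM + 1) over the 17 endothelial markers was subtracted before the fit. None of the 8 passed, with limma adjusted p from 0.269 to 0.897, while 7.85% of all genes were called, 1120 of these 1127 higher, and the median of all genes was 0.86. The relative log2 changes were -0.38 for Vtn, -0.32 for Rgs5, 0.09 for Kcnj8, 0.19 for Abcc9 and 0.27 for Notch3. For the contractile genes they were -0.65 for Acta2, -0.65 for Tagln and -0.64 for Myh11. The 95% intervals were wide, from -1.31 to 0.55 for Vtn, from -0.96 to 1.33 for Abcc9 and from -1.80 to 0.52 for Myh11. They cover both an equal change and differences close to 1 log2 unit or more. Since all genes share the error of the endothelial mean, even these intervals may be too narrow, and the share of genes called too high. The relative change of Rgs5 was 0.02 without control library 3. The mean pericyte minus endothelial log2 level was -0.02, -0.27 and -0.21 in obesogenic libraries 1, 2 and 3 and -0.42, -0.24 and 0.24 in control libraries 1, 2 and 3, and the diets overlapped.

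**Figure D4:**
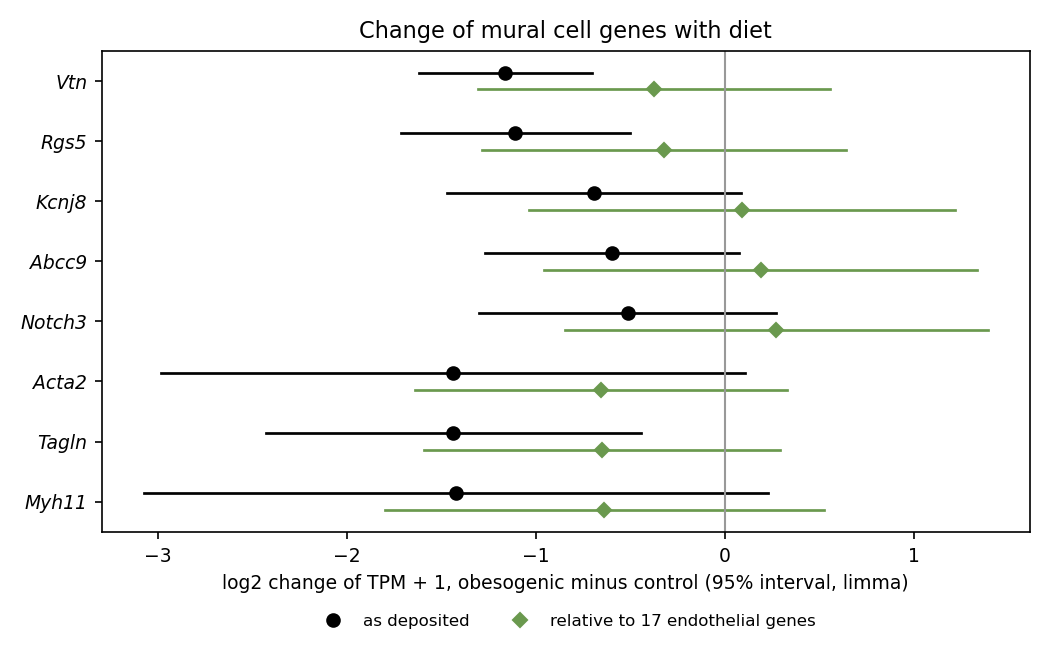
Log2 change of TPM + 1 (obesogenic minus control) of the 8 genes with 95% intervals from limma, as deposited (black circles) and after subtraction of the mean of 17 endothelial markers (green diamonds). As deposited all 8 lie below 0, from -1.44 for Acta2 to -0.51 for Notch3; relative to endothelial genes 5 lie below 0 and all 8 intervals include 0.

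Some genes outside the lists followed the mural profile closely. The median of the 8 genes relative to their control means was -1.14, -1.12 and -0.68 in obesogenic libraries 1, 2 and 3 and 0.27, 0.08 and -0.44 in control libraries 1, 2 and 3. Among 7991 other protein-coding genes at a mean of at least 10 TPM, the 5 with the smallest mean absolute log2 difference from this profile over the 6 libraries were Tgfb1i1 at 0.092, Cox7a1 at 0.10, Steap3 at 0.13, Cpxm1 at 0.13 and Isyna1 at 0.14, against a median of 0.67 over all 7991. Tgfb1i1 measured 22.9, 21.9 and 24.8 TPM in obesogenic libraries against 56.5, 56.0 and 36.2 TPM in control libraries. Of the members, Vtn was nearest to the profile at 0.17 and Myh11 farthest at 0.60. Likeness to a profile with a step between the diets is a description of these 6 libraries only.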

How the data were processed

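Bulk poly(A) RNA of mouse optic nerve was profiled in 6 libraries, with NucleoSpin RNA Plus XS extraction and SMART-Seq mRNA library kits, per the labels' protocols. The authors deposited 1 table of TPM values per transcript. Tools listed in the submitters' processing notes, with no role stated, were STAR 2.7.9a, featureCounts 2.0.3, Subread and DRAGEN; which of them made the TPM values, and on which build and annotation, was not given in the sources used here. TPM divides by transcript length, keeps no depth, and a transcript that is not listed lowers its gene's sum.

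The 110028 lines of that table covered 109383 transcripts of 35850 genes; 415 transcripts were repeated with the same values and counted once. Of 31 GENCODE M21 transcripts of the 10 members, 27 were listed. Gene sums at 1 TPM or more in at least 3 libraries were tested as log2(TPM + 1), obesogenic minus control, with limma 3.58.1 in R 4.3.3 (lmFit; eBayes, trend = TRUE), two-sided, with Benjamini-Hochberg adjustment over all genes and a threshold of 0.05. Fold changes on this scale understate the change of low genes. Transcripts were fitted alike. The relative fit subtracts the same endothelial mean from all genes, so its p-values are not independent between genes. eBayes pools variances over genes as if they were independent, so the p-values and intervals of the relative fit may be too small. With 3 against 3 libraries an exact permutation p cannot go below 0.1, so none was used. The fit was tested on simulated data. Library numbers come from the sample titles.

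The members and gene lists were chosen with earlier results of these data known. All members are named, and from each list up to 4 genes of smallest unadjusted p. Alternatives covered pseudocount, filter, scaling, sample number as a block, array weights, eBayes settings, the main transcript, protein-coding genes and removal of each library. The most alike genes were outside all lists, with an established symbol. Promoters came from RefSeq (6 of 10 members matched), and figures were drawn with matplotlib 3.10.9.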

Additional observations from a re-analysis of the deposited data

How the results depend on the processing

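As deposited, all 160 log2 changes of the 8 tested genes under the alternatives stayed below 0, and 155 stayed on the same side of the threshold; Rgs5, Vtn and Tagln passed with array weights (adjusted p = 0.0313, 0.0226 and 0.0363), and Vtn and Tagln without obesogenic library 2. The count of genes called was 1, and it was 0 with no filter and 0 with protein-coding genes only, 664 with array weights, and between 0 and 914 when single libraries were left out. Relative to endothelial genes 1127 genes were called, against 565 with a pseudocount of 0.1, 10651 with array weights and between 408 and 7089 when single libraries were left out. In that fit the Rgs5 log2 change, -0.32 as reported, turned to 0.044 with array weights and to 0.016 without control library 3. It ranged between -0.50 and 0.016 when single libraries were left out. With array weights Acta2, Tagln and Myh11 passed as lower (limma adjusted p = 0.0498, 0.0441 and 0.0198). The same fit called 10584 of 14364 genes higher and 67 lower. Transcripts called were 2, against 1 with a pseudocount of 0.1, 0 with no filter, 1 with a filter of 5 TPM, 1 after rescaling without immunoglobulin genes, 0 with the replicate block and between 0 and 4 when single libraries were left out. The count of members below every control library was 5 of 8, beside 7.45% of all genes. It was 2 after rescaling without immunoglobulin genes, beside 5.79% of all genes. When single libraries were left out it lay between 5 and 8, beside 9.52% to 15.7% of all genes. The cause of these shifts was not tested.

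Whether the sample numbers pair the libraries was not settled. The submitters' own sample names carry other numbers than the titles, so a shared title number may not mark a pair. Deviations of same-numbered libraries 1, 2 and 3 correlated at 0.008, 0.18 and 0.13 across genes. Obesogenic libraries 2 and 3 correlated best with the control library of the same number, and obesogenic library 1 with control library 3 (0.11). With the sample number as a replicate block 1 gene was called, in the higher direction, 838 relative to endothelial genes, and no member passed. The array weights were estimated gene by gene.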
